A study of Mus musculus with 2 samples.

Results

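The regions described here are open 1 kb tiles at the ends of protein-coding genes in nuclei from mouse liver. They were chosen by position and by fragment counts of these same libraries. A tile, cut from position 0 of each autosome of GRCm38, was taken when its midpoint lay within 1 kb of an annotated gene start or end and when it held at least 50 fragments, placed by fragment midpoint, from at least 30 called-cell barcodes of both libraries pooled. The rule gave 15542 of the 57920 autosomal tiles that met the same fragment and barcode minimums. The other open tiles comprised 24140 inside genes (intragenic) and 18238 between genes (intergenic), all over 1 kb from a gene end. The 15542 are also a part of 74752 autosomal tiles at gene ends, of which 70220 held any fragment. At the edge of the rule, 114 tiles held exactly 50 fragments, with a median of 43 barcodes, and 132 left out held 49 fragments, also with a median of 43 barcodes. A further tile held enough fragments but came from 29 barcodes.

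The study compared liver macrophages of 1 male mouse of genotype Spta sph/sph with those of 1 littermate of genotype Spta wt/wt, both 8 to 10 weeks old and untreated. Spta is the gene of alpha-spectrin, a protein of the red cell membrane skeleton, and the title of the series names erythrophagocytosis, the engulfing of red cells, as its subject. Cells other than hepatocytes were prepared by collagenase perfusion, and F4/80-positive cells were enriched with antibody-coated beads before single-nucleus ATAC-seq (10x Genomics), which cuts accessible DNA with a transposase and tags the fragments of each nucleus with a barcode. No label or file used here ties a barcode suffix to a genotype, so the libraries are called library 1 and library 2 and no value below belongs to a genotype. With 1 library per genotype there was no replicate check and no test across samples, and all intervals cover counting error only.

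A gene start carries the promoter, where the transcription machinery assembles on DNA cleared of nucleosomes. Promoters of genes that most cells use tend to lie in CpG islands, stretches rich in the dinucleotide CG, and are open in many cell types, whereas the sites that distinguish cell types lie more often in distal enhancers and in CpG-poor promoters. Kupffer cells are the resident macrophages of the liver sinusoid and depend on the ETS factor PU.1, and they take up aged red cells and recycle the iron of their heme.

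The sequences below belong to tiles with extreme values, and they are examples rather than typical windows of their sets. They are RefSeq promoter windows of GRCm38.p6, from 250 bases before to 50 after a transcript start, written 5′ to 3′ on the strand of the gene, with every CG dinucleotide in capitals. Hdgfl2 (chr17:56079381-56079680, plus strand) and Osbp (chr19:11965594-11965893, plus strand) are shown because their tiles were among the broadest over cells. Their windows hold 28 and 34 CG dinucleotides.
Hdgfl2: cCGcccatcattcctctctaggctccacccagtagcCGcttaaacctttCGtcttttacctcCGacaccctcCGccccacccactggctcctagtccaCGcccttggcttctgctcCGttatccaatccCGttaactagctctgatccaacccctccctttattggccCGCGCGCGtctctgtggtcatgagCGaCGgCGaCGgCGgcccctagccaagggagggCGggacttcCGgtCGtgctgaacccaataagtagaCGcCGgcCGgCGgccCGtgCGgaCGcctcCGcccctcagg
Osbp: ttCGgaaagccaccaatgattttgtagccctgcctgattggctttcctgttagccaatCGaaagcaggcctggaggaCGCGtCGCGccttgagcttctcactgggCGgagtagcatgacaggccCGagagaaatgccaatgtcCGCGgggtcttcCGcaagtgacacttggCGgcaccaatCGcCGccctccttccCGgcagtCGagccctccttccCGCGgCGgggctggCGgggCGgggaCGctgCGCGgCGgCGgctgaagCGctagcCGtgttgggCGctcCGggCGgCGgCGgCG
Clec7a (chr6:129472730-129473029, minus strand) and Pvrig (chr5:138341681-138341980, plus strand) are shown for tiles open in Kupffer-like cells, with 5 and 2 CG dinucleotides.
Clec7a: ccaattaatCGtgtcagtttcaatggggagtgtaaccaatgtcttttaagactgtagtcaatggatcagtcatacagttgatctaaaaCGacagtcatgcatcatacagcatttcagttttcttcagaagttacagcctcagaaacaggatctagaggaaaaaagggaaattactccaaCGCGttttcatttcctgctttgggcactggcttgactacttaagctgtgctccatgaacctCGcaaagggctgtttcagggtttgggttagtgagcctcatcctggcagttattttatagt
Pvrig: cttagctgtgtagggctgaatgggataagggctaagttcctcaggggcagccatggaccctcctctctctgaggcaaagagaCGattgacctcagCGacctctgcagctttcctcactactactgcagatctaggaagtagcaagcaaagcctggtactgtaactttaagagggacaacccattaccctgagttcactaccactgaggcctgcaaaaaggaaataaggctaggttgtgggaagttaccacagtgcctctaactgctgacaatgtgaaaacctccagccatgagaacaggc
Myct1 (chr10:5593478-5593777, plus strand) and Adgrl4 (chr3:151437632-151437931, plus strand) are shown for tiles open in endothelial-like cells, with 5 and 8 CG dinucleotides. The median over all windows higher in endothelial-like cells was 20, so these are CG-poor for their set.
Myct1: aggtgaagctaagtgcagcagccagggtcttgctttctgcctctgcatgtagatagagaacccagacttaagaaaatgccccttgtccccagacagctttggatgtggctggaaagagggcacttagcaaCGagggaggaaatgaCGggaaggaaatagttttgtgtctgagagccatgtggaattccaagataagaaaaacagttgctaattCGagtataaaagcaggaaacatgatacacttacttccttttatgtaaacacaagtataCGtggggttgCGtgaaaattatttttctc
Adgrl4: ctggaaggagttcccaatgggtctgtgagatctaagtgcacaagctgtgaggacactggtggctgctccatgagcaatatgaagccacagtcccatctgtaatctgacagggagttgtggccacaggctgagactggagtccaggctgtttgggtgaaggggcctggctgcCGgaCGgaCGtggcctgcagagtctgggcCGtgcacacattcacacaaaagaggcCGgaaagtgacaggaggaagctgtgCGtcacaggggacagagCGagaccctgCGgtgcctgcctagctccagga
Mgst1 (chr6:138141337-138141636, plus strand) and Bhlhe41 (chr6:145865371-145865670, minus strand) are shown for tiles higher in library 2 in Kupffer-like cells, with 1 and 32 CG dinucleotides, the lowest and highest among the named tiles of that set with a window. H2-Aa (chr17:34287774-34288073, minus strand) and Ptpra (chr2:130450028-130450327, plus strand) are the same for tiles lower in library 2, with 3 and 32.
Mgst1: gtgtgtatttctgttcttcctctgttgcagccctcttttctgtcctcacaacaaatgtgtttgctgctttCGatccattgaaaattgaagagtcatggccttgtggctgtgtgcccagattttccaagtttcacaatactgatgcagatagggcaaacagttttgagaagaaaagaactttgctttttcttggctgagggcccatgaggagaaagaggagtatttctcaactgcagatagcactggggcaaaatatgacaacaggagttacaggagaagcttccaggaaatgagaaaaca
Bhlhe41: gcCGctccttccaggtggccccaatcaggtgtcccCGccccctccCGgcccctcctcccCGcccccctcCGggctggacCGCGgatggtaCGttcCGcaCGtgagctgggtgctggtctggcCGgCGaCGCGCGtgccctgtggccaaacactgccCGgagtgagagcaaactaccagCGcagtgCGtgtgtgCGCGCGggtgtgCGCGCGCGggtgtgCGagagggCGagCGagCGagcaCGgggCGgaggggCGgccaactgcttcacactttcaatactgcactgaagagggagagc
H2-Aa: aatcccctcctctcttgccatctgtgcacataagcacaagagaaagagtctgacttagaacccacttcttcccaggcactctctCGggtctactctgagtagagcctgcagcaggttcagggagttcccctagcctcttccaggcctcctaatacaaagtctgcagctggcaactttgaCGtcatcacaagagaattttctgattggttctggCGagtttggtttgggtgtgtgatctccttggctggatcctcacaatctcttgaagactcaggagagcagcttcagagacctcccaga
Ptpra: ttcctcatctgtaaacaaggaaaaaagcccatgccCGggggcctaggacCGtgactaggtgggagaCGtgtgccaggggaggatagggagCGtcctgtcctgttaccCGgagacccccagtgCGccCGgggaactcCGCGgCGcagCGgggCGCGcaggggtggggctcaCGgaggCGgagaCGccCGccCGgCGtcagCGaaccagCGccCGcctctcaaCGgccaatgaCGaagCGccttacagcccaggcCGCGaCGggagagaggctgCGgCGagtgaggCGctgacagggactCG

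The libraries held 637 and 575 called cells, no shared cell barcode, and 11401694 and 21656110 fragments, of which 83.2% and 56.2% came from called cells. The median depth was 13220 and 13186 fragments per cell, and cells of library 1 had a median of 72.1% of fragments in the authors' peaks, and those of library 2 53.7%. Pile-ups, 20 kb bins in which 1 cell had at least 10 times the fragments expected from the other cells, took 0.687% and 12.3% of cell fragments. Cluster 7, which had no name, held 1 cell of library 1 and 22 of library 2, with 0.716% and 23.2% of cell fragments. Clustering on fragments outside gene ends gave 9 clusters. Kupffer-like cells numbered 337 and 303, of which 304 in library 1 formed cluster 1 and all 303 in library 2 cluster 0, so different clusters hold most of this class in each library. The 33 cells of library 1 in cluster 0 had a median of 5799 fragments. The 10 leading genes of cluster 0 held 1 Kupffer marker, Marco, and also Hmox1, against 4 Kupffer markers in cluster 1. Endothelial-like cells numbered 125 and 141, of which 99 in library 1 formed cluster 4 and all 141 in library 2 cluster 2. The 26 cells of library 1 in cluster 2 were shallow, with a median of 3148 fragments, and no endothelial marker was among the 10 leading genes of that cluster. The tile of the F4/80 gene Adgre1 held 98 and 68 fragments in Kupffer-like cells and 1 and 5 in endothelial-like cells. Adgre1 was among the markers that gave the Kupffer-like clusters their name, so it is no separate check of the classes.

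Open tiles at gene ends lay mainly at gene starts. Of the 15542 tiles, 11023 (70.9%) were within 1 kb of a start only, 1157 (7.44%) of an end only and 561 of both, and for 2801 the strand was not given. A tile was present for 11371 of 20661 autosomal protein-coding genes (55.0%). Among 13973 genes of at least 3 kb with a given strand, 58.9% had an open tile at the start and 9.33% at the end. In detail, 7287 genes had one at the start only, 366 at the end only, 938 at both and 5382 at neither. Around 10549 genes of at least 10 kb, the tile holding the start had a mean of 12.1 CPM (fragments scaled to all cell fragments of the library) in library 1 and 9.05 in library 2, against 0.716 and 0.624 in the tile 10 kb upstream. The tile holding the gene end had 0.717 and 0.616, so a start stood out in both libraries and an end did not.

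**Figure D1:**
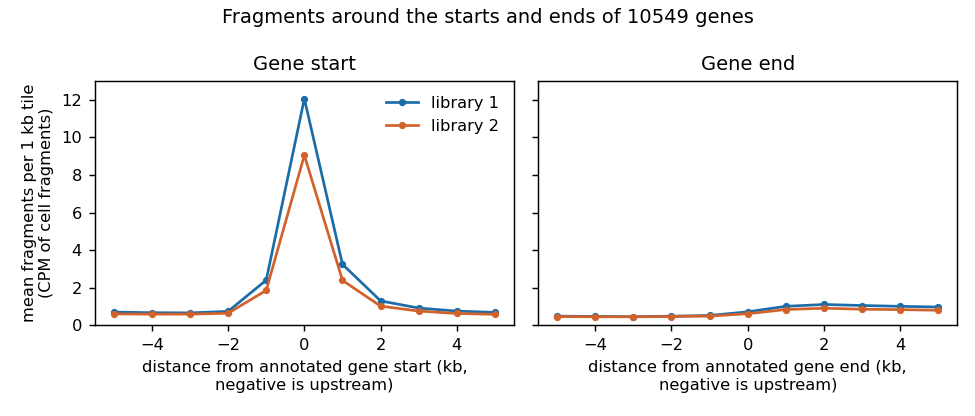
Mean fragments per 1 kb tile, as CPM of the library's cell fragments, by distance in kb from the annotated start (left) or end (right) of 10549 genes, with 1 line per library. Both lines peak in the tile that holds the start, at 12.1 in library 1 and 9.05 in library 2, and stay near 1 or below around the end.

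Gene families differed in how many of their members had an open tile. Of 80 cytosolic ribosomal protein genes, whose products build the ribosome of every cell, 75 had one, as did 36 of 39 proteasome subunit genes, 71 of 78 mitochondrial ribosomal protein genes and 77 of 85 spliceosome and translation factor genes. Zinc finger genes of the Zfp series had one in 289 of 388 cases and histone genes in 62 of 75. Other families mostly lacked one, with 9 of 1104 olfactory receptor genes, 2 of 354 vomeronasal receptor genes, 4 of 112 keratin genes and 8 of 39 Hox genes. The background over all autosomal protein-coding genes was 55.0%.

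Breadth is the percent of the called cells with at least 1 fragment in a tile. It overlaps with the barcode minimum of the rule and is given as a description. Over the 15542 tiles the median breadth was 13.4% of cells, with a range of 2.72% to 69.0%, and the medians were 14.4% in library 1 and 12.2% in library 2. Intragenic and intergenic open tiles both had a median of 6.11%. At least 25% of cells were reached by 3562 tiles at gene ends (22.9%), against 2.78% of intragenic and 2.18% of intergenic tiles, and at least 50% of cells by 219 (1.41%). Within gene ends, tiles at a start only had a median of 14.9% and those at an end only 6.11%, the median of the tiles far from genes' ends. With each cell thinned to 5000 fragments, which kept 529 and 512 cells, the medians over all tiles at gene ends were 5.48% and 3.71%. The order of the libraries was the same as without thinning.

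**Figure D2:**
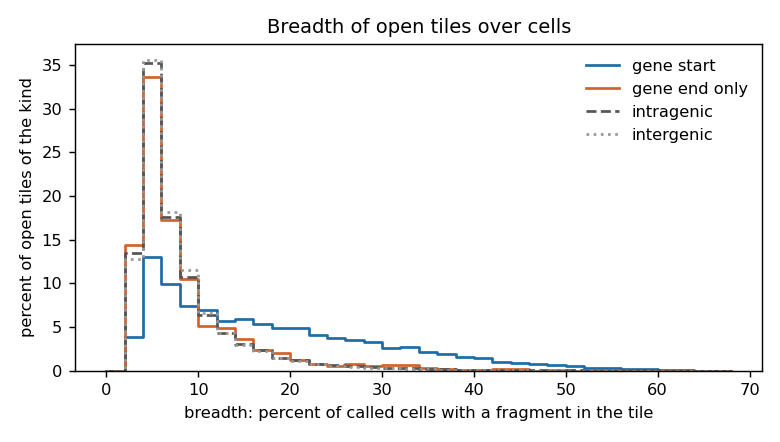
Distribution of breadth, the percent of called cells with a fragment in the tile, in steps of 2 percentage points, as a percent of the open tiles of each kind. The curve of tiles at gene starts reaches far to the right of the other 3, and tiles at gene ends only lie with the intragenic and intergenic tiles.

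A deeper tile reaches more cells, so breadth was also set against fragment number. Evenness is the number of cells with a fragment divided by the number expected if the tile's fragments fell on cells in proportion to their depth. Among tiles with 200 to under 400 fragments, the median evenness at gene ends was 0.970 in library 1 and 0.966 in library 2, against 0.938 and 0.930 for intragenic tiles and 0.930 and 0.922 for intergenic tiles. The median number of barcodes in that band was 221 for tiles at gene ends, 198 for intragenic and 195 for intergenic tiles. Tiles at gene ends had the highest median in both libraries in each band from 50 to under 800 fragments. At 800 and more, intragenic tiles and tiles at gene ends of library 2 both had 1.00.

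The broadest tile lay at the start of Hdgfl2 (chr17:56079001-56080000), a chromatin reader related to the hepatoma-derived growth factor. It had a fragment in 437 cells of library 1 and 399 of library 2, a breadth of 69.0% (exact 95% interval 66.3 to 71.6). It was found in 69.7% and 65.0% of Kupffer-like cells and in 74.4% and 70.2% of endothelial-like cells. The shares of cells were high in both classes. Scaled to the fragments of each class, the tile had 83 CPM in Kupffer-like and 140 in endothelial-like cells of library 1. In library 2 it had 109 and 123.

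Zbtb20, a zinc finger repressor known for its role in hepatocytes, followed at 67.9% of cells, and Dnpep, an aspartyl aminopeptidase, at 67.1%. Osbp, the oxysterol-binding protein that exchanges lipids between membranes, reached 68.1% of cells in library 1 and 61.2% in library 2. The others among the 10 broadest were Leprot at 64.3%, Gatad2a, a subunit of the NuRD complex, at 64.3%, Brpf1, a subunit of a histone acetyltransferase complex, at 64.1%, the splicing factor Sf1 at 63.5%, the centromere histone chaperone Hjurp at 63.2% and Cep57 at 63.0%. All 10 lay at a gene start. Tiles of Hdgfl2, Brpf1 and Cep57 were also within 1 kb of a start or end of Ubxn6, Cpne9 and Fam76b, so their fragments cannot be given to 1 gene.

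By family, the broadest tile per gene had a median breadth of 27.5% for cytosolic ribosomal protein genes, from 4.62% at Rpl22 to 56.3% at Rps19. The medians were 26.7% for spliceosome and translation factors, with Eif5a highest at 58.1%, 25.7% for histone genes, 21.5% for proteasome subunits and 20% for mitochondrial ribosomal proteins, against 19.7% over all genes with a tile. The 9 olfactory receptor genes with a tile had a median of 5.94% and the 8 Hox genes 9.78%. Of 20 heme and iron genes 19 had a tile, with a median of 25.9%, Hpx being the exception. All 13 macrophage identity factors had one, with Id3, an inhibitor of basic helix-loop-helix factors, highest at 46.9%.

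Accessibility by cell class was compared as CPM, scaled to all fragments of the class in each library, against the other named classes summed, for the 13418 of 15542 tiles with at least 20 fragments in each library over the named classes. A tile was called by size, when it was at least 2-fold higher or lower in both libraries. The clusters were built without any fragment of these tiles. Open tiles away from gene ends took part in the clustering, and the effect of this on the shares called there was not tested. Kupffer-like cells were higher at 918 tiles (6.84%), far under the background of 26.4% over all 41748 open tiles tested, and lower at 805 (6.0%) against 12.2%. Endothelial-like cells were higher at 710 tiles (5.29%) against 11.6%, and lower at 992 (7.39%) against 26.7%. Within 2-fold of the other classes in both libraries were 9112 tiles (67.9%), against 23.0% of intragenic and 20.9% of intergenic tiles. Open tiles at gene ends held a median of 199 fragments, against 87 in intragenic and 87 in intergenic tiles. Fewer fragments widen the counting scatter, and this share was not compared at like fragment numbers. Across the 13418 tiles the log2 ratios of Kupffer-like to other cells had a Pearson correlation of 0.78 between the libraries, and 20 tiles were 2-fold apart in opposite directions. With clusters built on all bins, 903 tiles at gene ends were higher in Kupffer-like cells and 692 in endothelial-like cells.

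Tiles at gene starts and tiles at gene ends only differed in class specificity. Kupffer-like cells were higher at 5.10% of tiles at a start only and at 26.0% of tiles at an end only, against 34.5% of intragenic and 37.3% of intergenic tiles. Endothelial-like cells were higher at 4.35% and 10.3%, against 14.8% and 14.2%. Among tiles with 100 to under 200 fragments the shares higher in Kupffer-like cells were 9.95% at a start only, 35.5% at an end only, 42.3% inside genes and 44.9% between genes, so the order was also found at like fragment numbers. Of the 1157 tiles at an end only, 37 (3.2%) lay near a further promoter of the RefSeq table.

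**Figure D3:**
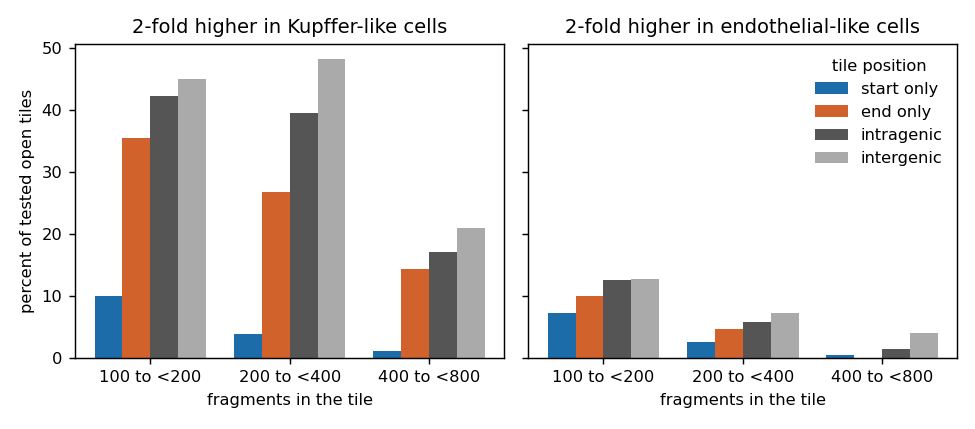
Percent of tested open tiles at least 2-fold higher in Kupffer-like (left) or endothelial-like (right) cells in both libraries, by number of fragments in the tile, with 1 bar per tile position. Bars for tiles at gene starts are the lowest of the 4 in every group but 1, the endothelial-like panel at 400 to under 800 fragments, where no tile at a gene end only was called.

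Broad tiles were more often alike between the classes. The tiles were split into 4 bands of breadth of about equal size. In the narrowest band (2.72% to 6.68% of cells) 30% of those tested were within 2-fold in both libraries, in the next 47.6%, then 77.5%, and in the broadest (23.8% to 69.0%) 95.8%. The share higher in Kupffer-like cells was 10.7%, 13%, 4.96% and 0.875% from the narrowest to the broadest band, and that higher in endothelial-like cells 16.2%, 7.97%, 2.61% and 0.257%. Breadth was taken over all called cells, so a tile open in a small class alone stays narrow. Part of this link is thus fixed by the measure. Tiles of low breadth also held fewer fragments, and the part of counting scatter in their ratios was not tested.

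The tiles with the largest Kupffer-like excess, with marker genes left out, lay at genes of varied function. The tile at the start of Clec7a, which encodes the fungal glucan receptor Dectin-1, held 88 fragments in Kupffer-like cells of library 1 and 35 in library 2, and none in the other named classes. This is at least 14.4-fold higher in library 1 and at least 6.85-fold higher in library 2, with 3 fragments per library as the floor. A fragment was found in 20.5% and 9.90% of Kupffer-like cells and in 0 of 125 and 0 of 141 endothelial-like cells, which allows shares of up to 2.40% and 2.13%.

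P2ry12, a purinergic receptor of macrophages and platelets, had 73 and 22 fragments in Kupffer-like cells against 1 and 0 in the other named classes. Its ratio in library 1 was 35.9-fold with a counting interval of 6.24 to 1436, and in library 2 it was at least 4.30-fold higher. The tile at the start of Pvrig, an inhibitory lymphocyte receptor, had 69 and 21 fragments in Kupffer-like cells against 1 and 0. Tiles at the ends of Mefv, the gene of the inflammasome protein pyrin, and of Padi2, a peptidylarginine deiminase, had 46 and 25 and 69 and 23 fragments, against 0 and 0 and 1 and 0. These tiles were picked for the largest ratios in these counts, so an excess in Kupffer-like cells of both libraries is fixed by that choice. Cells without a named class, among them cluster 3 with its best score for monocyte markers, were not compared. They held part of the fragments, as the Padi2 tile had 84 and 56 over all called cells. Syce1l, Tep1 and Prss43 completed the 8, and the tile 968 bases past the end of Syce1l was the fullest, with 140 and 97 fragments against 3 and 2.

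Among the 8 tiles with the largest endothelial-like excess, Adgrl4, an adhesion receptor of endothelium, had 52 and 29 fragments in endothelial-like cells against 3 and 2 in the other named classes. The ratios were 76.0-fold (interval 24.6 to 381) in library 1 and 35.2-fold (8.90 to 304) in library 2. These 8 tiles were picked for the largest ratios in these same counts, and the intervals do not allow for that choice. Over all called cells the Adgrl4 tile held 96 fragments, so it met the rule mainly through the endothelial-like class. The tile was found in 34.4% and 16.3% of endothelial-like cells and in 0.594% and 0.660% of Kupffer-like cells.

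Myct1, a membrane protein of endothelium, had 29 and 26 fragments against 4 and 1. Notch4, the Notch receptor of blood vessels, had 46 and 30 against 8 and 3, and Rasip1, a regulator of vessel lumen formation, had 36 and 23 against 5 and 2. These 3 tiles lay at gene starts, and that of Rasip1 was also near Izumo1. Lama4, a laminin of vessel basement membrane, Jam2, a junctional adhesion molecule, Slc26a10 and Cfap73 were the other 4.

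**Figure D4:**
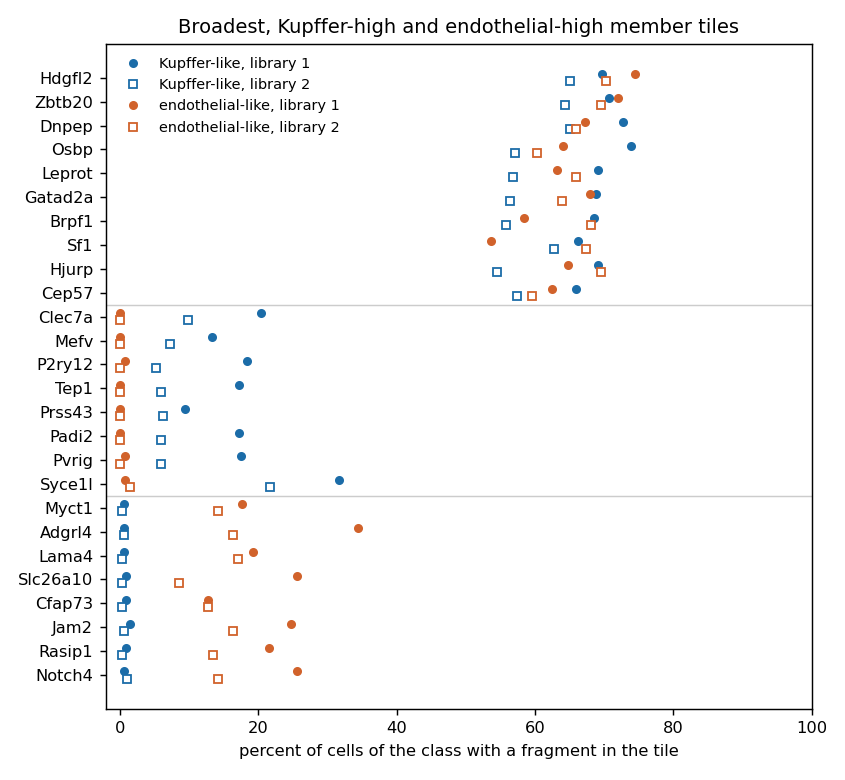
Percent of Kupffer-like (blue) and endothelial-like (orange) cells with a fragment in each named tile, in library 1 (filled circles) and library 2 (open squares). The 10 broadest tiles on top lie above 50% in both classes, the 8 Kupffer-high tiles stay under 2% of endothelial-like cells, and the 8 endothelial-high tiles stay under 2% of Kupffer-like cells.

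Among gene lists, 75 cytosolic ribosomal protein genes were tested at their broadest tile and 72 were within 2-fold in both libraries. The same was seen for 35 of 36 proteasome subunit genes and 71 of 76 spliceosome and translation factor genes, against 7925 of 10587 over all genes. Higher in Kupffer-like cells were 527 of 10587 genes overall. Of 17 inflammatory response genes 8 were higher. Among them were Ccl3, a chemokine, with 133 and 73 fragments against 5 and 4 in the other named classes, and Nlrp3, an inflammasome sensor, with 132 and 75 against 8 and 5. Of 10 tested MHC class II genes 6 were higher. Of 61 tested histone genes 9 were higher in Kupffer-like cells and 40 were within 2-fold. Some of these genes share a tile, as H2bc13 and H2ac13 do with 177 and 99 fragments.

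Promoter sequence was set beside these values for 20084 RefSeq promoter windows of 300 bases at 16456 coding genes. The start lay in an open tile at a gene end for 9043 windows. They had a median of 22 CG dinucleotides and 62.0% GC, against 4 and 50.0% for the 9460 whose start was in no open tile. By CG number, 5.68% of windows with 0 to 3 lay in such a tile, 19.7% with 4 to 9, 60.3% with 10 to 19, 74.0% with 20 to 29 and 73.8% with 30 or more. The share higher in Kupffer-like or endothelial-like cells among those tested was 49.2% at 0 to 3, 24.3% at 4 to 9, 5.63% at 10 to 19, 3.61% at 20 to 29 and 5.0% at 30 or more. Windows of tiles higher in Kupffer-like cells had a median of 7, and those higher in endothelial-like cells 20, so low CG content went with the Kupffer-like excess more than with the endothelial-like one.

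Motifs were searched as letters on both strands. GGGCGG, the core of the SP and KLF sites, was in 69.1% of windows in open tiles and in 47.0% of all windows, and TATAAA was in 6.15% against 12.7%. CCAAT, the NF-Y site, was in 49.2% of windows in the broadest band, in 31.1% of the narrowest and in 38.1% of all. GAGGAAGT, a PU.1 site that contains the ETS core GGAA and was added after the data were seen, was in 33 of 282 windows higher in Kupffer-like cells (11.7%), in 2.49% of those higher in endothelial-like cells and in 3.18% of all. The core GGAA alone was in 95.6% of all windows and did not separate the groups.

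Between the libraries, tiles at gene ends were compared within a class as CPM, relative to the median open tile, and called at 2-fold. The median open tile was 0.57 lower on the log2 scale in library 2 in Kupffer-like cells and 0.32 lower in endothelial-like cells. In Kupffer-like cells, 381 of the 11606 tiles with at least 50 fragments were higher in library 2 (3.28%), under the background of 4.06% over all open tiles, and 395 were lower (3.4%) against 8.05%. Scaled by fragments in open tiles and not centred, 193 were higher and 583 lower. This alternative changed scaling and centring together. With each cell counted once 148 were higher and 256 lower, and with cells thinned to 5000 fragments 68 and 96. In endothelial-like cells 60 of 6483 were higher (0.925%, background 2.49%) and 113 lower (1.74%, background 5.61%). The median log2 ratio of the tiles was 0.20 in Kupffer-like and 0.08 in endothelial-like cells. Among 6215 tiles tested in both classes, 206 were higher and 39 lower in library 2 in Kupffer-like cells, and 54 higher and 81 lower in endothelial-like cells. Of these, 8 were higher in library 2 in both, 4 were lower in both and 1 was opposite. Across the 6215 tiles the library log2 ratios of both classes had a Pearson correlation of 0.41. The like counts over all open tiles are not given, so the overlap has no background beside it.

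The share of fragments in peaks and the clusters differed between the libraries along with these values, and the median depth of Kupffer-like cells was 15960 fragments in library 1 and 12458 in library 2. The summed CPM of the 12 Kupffer markers in Kupffer-like cells was 1078 in library 1 and 701 in library 2, and 1 of 12 was higher in library 2. The 10 hepatocyte markers summed to 50.2 and 64.0 there, with 8 of 10 higher in library 2, none at 0. The 8 erythroid markers summed to 54.5 and 66.7, with 7 of 8 higher in library 2, and the 8 neutrophil markers to 108 and 69.1, with none higher. These sums are plain CPM, not relative to the median open tile. That tile was 0.57 lower on the log2 scale in library 2 in Kupffer-like cells. Relative to it, the 11 Kupffer markers tested at their broadest tile had a median log2 ratio of -0.41, against 0.24 over all genes. The part of these markers in the library differences was not tested. Of called-cell fragments, 23.9% in library 1 and 17.5% in library 2 lay in tiles at gene ends, and 24.0% and 19.9% with pile-ups left out.

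The largest excess of library 2 in Kupffer-like cells was at Hmox1, the gene of heme oxygenase 1, which opens the heme ring. The tile lay at the end of the gene with the higher coordinate (chr8:75100001-75101000) and held 20 fragments in library 1 and 107 in library 2, or 3.48 and 22.6 CPM. A fragment was found in 4.75% and 20.1% of the cells. The log2 ratio was 3.24 (exact 95% interval 2.57 to 4.04). The tile at the other end of Hmox1 held 124 and 96 fragments, with a log2 ratio of 0.48 (0.08 to 0.87), so the ends of the gene differed in size.

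Mgst1, a microsomal glutathione transferase, had 43 and 130 fragments and a log2 ratio of 2.43 (1.94 to 2.98), and of 1.80 with thinned cells. Bhlhe41, a basic helix-loop-helix repressor, had 41 and 79 with a ratio of 1.79. The tile at the end of Gys1, in the neighbourhood of the ferritin light chain gene Ftl1, had 38 and 68 with a ratio of 1.68. Cdc40 (26 and 94), Pgbd5 (52 and 112), Lars2 (50 and 106), Fzd1, a Wnt receptor (45 and 93), Adhfe1 (39 and 77) and Smarca4, a remodelling ATPase (38 and 73), completed the 10. The intervals of these 10 tiles lay above a 2-fold difference, but the tiles were picked for the largest ratios in these same counts. In endothelial-like cells Bhlhe41 went the other way, with 14 and 4 fragments (log2 ratio -1.83, -4.01 to -0.28). There Mgst1 had 2 and 24 (3.15, 1.43 to 6.57), Hmox1 1 and 9 (2.52, 0.18 to 8.48) and Lars2 9 and 41 (1.98, 0.98 to 3.27), all higher in library 2 as in Kupffer-like cells. In Kupffer-like cells the Lars2 ratio was 1.92, and 1.09 with cells of at least 50% of fragments in peaks.

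The largest deficits were at 10 tiles of varied function. Cd74, the invariant chain that guides class II molecules, had 192 fragments in library 1 and 19 in library 2, in 37.7% and 5.61% of Kupffer-like cells, with a log2 ratio of -2.46 (-3.25 to -1.81). H2-Aa, a class II alpha chain, had 130 and 18 with a ratio of -1.97 (-2.80 to -1.29). Psd3 had 132 and 13, the mitochondrial ribosomal protein gene Mrps22 had 89 and 11, and the leukotriene receptor gene Ltb4r2 had 87 and 13. Myof (87 and 14), Scn4a (89 and 15), Nudt13 (122 and 22), Cacnb1 (94 and 17) and Ptpra (117 and 22) followed. These 10 too were picked for the largest deficits in these same counts. The intervals of Myof, Scn4a, Nudt13, Cacnb1 and Ptpra reached inside a 2-fold difference.

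**Figure D5:**
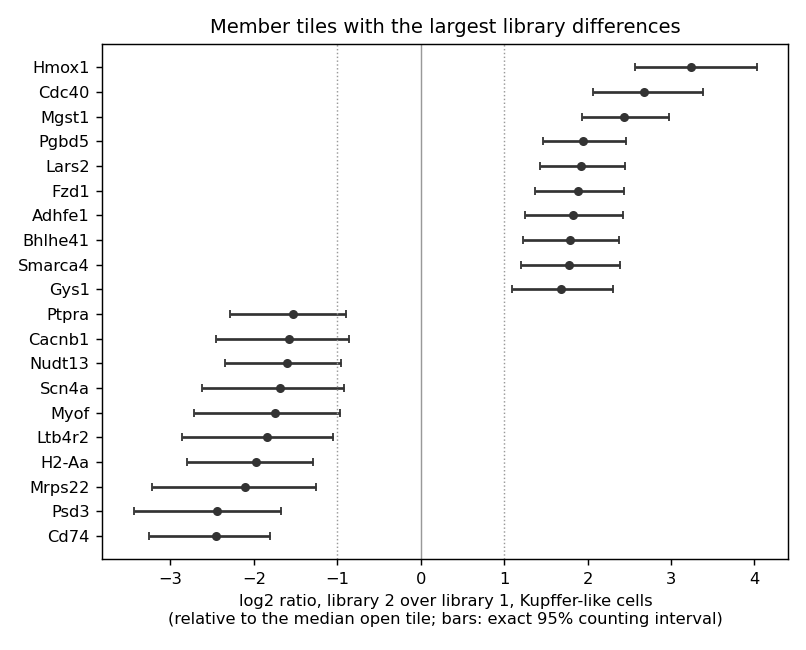
Log2 ratio of library 2 to library 1 in Kupffer-like cells for the 20 named tiles, relative to the median open tile, with exact 95% counting intervals as bars and dotted lines at a 2-fold difference. Hmox1 is highest at 3.24 and Cd74 lowest at -2.46.

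Gene lists were read against the counts over all genes, 255 higher and 277 lower of 9758 at the broadest tile. Of 11 MHC class II genes tested, 0 were higher and 3 lower in library 2 by size, Cd74, H2-Aa and H2-Ob, with a list median of -0.71 against 0.24 over all genes. The class II list was not uniform, since H2-DMa, a peptide-loading subunit, had 241 and 257 fragments and a ratio of 0.94. Of 18 heme and iron genes tested 2 were higher and 0 lower, with a median of 0.49. Both were tiles shared with a neighbour, that of Blvrb (biliverdin reductase B) at the start of Sptbn4, with 293 and 352 fragments and a ratio of 1.11, and that of Fth1 (ferritin heavy chain) at the end of Best1, with 16 and 43 and a ratio of 2.25. Slc40a1, the iron exporter ferroportin, had 29 and 15 fragments, under the minimum of 50, and was not among the 18 tested.

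Of 10 NRF2 antioxidant genes tested 1 was higher, Nqo1, a quinone reductase, with 39 and 47 fragments and a ratio of 1.11 (0.47 to 1.77), and the list median was 0.62. Me1, malic enzyme, had 4 and 22 fragments, too few to be among those tested. Of 17 inflammatory response genes none was higher or lower, and the median was -0.01. Of 13 macrophage identity factors 2 were higher, Bhlhe41 and Bhlhe40, the latter with 146 and 171 fragments and a ratio of 1.07. The ratios of Bhlhe40, Nqo1 and Blvrb passed 2-fold only relative to the median open tile. That tile was 0.57 lower on the log2 scale in library 2. Spi1, the gene of PU.1, had 72 and 43 with a ratio of 0.11. Of 68 mitochondrial ribosomal protein genes 4 were lower, and of 73 cytosolic ones 2 were higher.

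In endothelial-like cells the largest excess of library 2 was at Lamc1, a laminin gamma chain, with 27 and 86 fragments and a log2 ratio of 1.51 (0.89 to 2.21). Hmmr, a hyaluronan receptor, followed at 1.37. Apold1, an early response gene of endothelium, had 51 and 144 with a ratio of 1.35, and 0.87 with each cell counted once. Rae1 and Usp53 followed at 1.29 and 1.25. The largest deficit was at Lfng, a glycosyltransferase that modifies Notch, with 82 and 32 fragments and a ratio of -1.49 (-2.14 to -0.89). Slc29a1, a nucleoside transporter, followed at -1.35, and at -0.74 with each cell counted once, then Atf6b at -1.33, Pprc1 at -1.18 and Tln1, the integrin adaptor talin 1, at -1.15. The tiles of Hmmr and Tln1 were also within 1 kb of a start or end of Nudcd2 and Creb3. The intervals of all 10 tiles, which were picked in the same way, reached inside a 2-fold difference. The 13 endothelial markers in these cells summed to 2396 CPM in library 1 and 1541 in library 2, and 1 of 13 was higher in library 2. The 8 dendritic cell markers summed to 411 and 235, with 2 of 8 higher, and the 7 cholangiocyte markers to 21.0 and 34.2, with 7 of 7 higher and 2 at 0 in library 1. These sums too are plain CPM, and the median open tile was 0.32 lower on the log2 scale in library 2 in these cells. Relative to it, the 8 endothelial markers tested at their broadest tile had a median log2 ratio of -0.68, against 0.08 over all genes. The part of these markers in the endothelial-like differences was not tested.

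Promoter windows of tiles that differed between the libraries in Kupffer-like cells also differed in sequence. Those higher in library 2 had a median of 25.5 CG dinucleotides and those lower had 15. The NRF1 motif was in 22 of 234 higher windows (9.40%), in 0 of 231 lower windows and in 2.53% of all windows in open tiles at gene ends. Windows higher in library 2 were also richer in CG, and the part of composition in the motif share was not tested.

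Fragment length was not used by the rule. Fragments shorter than the DNA wrapped around 1 nucleosome made up 71.6% of those in tiles at gene ends in library 1 (exact 95% interval 71.5 to 71.6) and 70.5% in library 2 (70.4 to 70.5). Intragenic open tiles had 71.2% and 70.4%, and intergenic ones 71.3% and 70.7%. Tiles that were not open had 48.0% and 57.7%. Open tiles at gene ends thus had a like share of short fragments to other open tiles, above that of the rest of the genome.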

How the data were processed

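Single-nucleus ATAC-seq of 2 liver samples was analysed from a deposited fragment table and a deposited per-barcode table. Per the submitters' processing notes, the genome build was GRCm38.p5 and the tools included Signac 0.2.4 with Seurat under R 3.6.1 and the Cell Ranger ATAC pipeline, 1.2.0. The deposited tables hold counts, not normalized: read pairs per unique fragment and fragments per barcode, with the authors' cell calls. Each unique fragment was counted once here, at its midpoint. Gene ends, strand (given for 17491 of 21883 protein-coding genes) and promoter windows came from RefSeq tables of GRCm38.p6, which shares primary coordinates with that build. The members and lists were chosen with earlier results of these data known.

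Called cells with at least 1000 fragments in peaks, 15% in peaks and at most 5% blacklisted (609 of 637 and 562 of 575) were clustered on 335947 bins of 5 kb without tiles at gene ends (TF-IDF, truncated SVD to 30 components in scikit-learn 1.9.0, 20 neighbours, Leiden resolution 0.5, leidenalg 0.10.2). A cluster took the name of a marker list when at least 3 of its markers were detected, its mean log2 score reached 1 and it led the next list by 0.5, limits set after the data were seen. Doublets were marked by scrublet (scanpy 1.11.5; 16 and 10 cells) and by overlapping fragments (68 and 85) and were kept. Each log2 ratio is given with an exact interval from the binomial distribution of the 2 counts, and 0.5 was added to each count for the ratio alone. Simulated counts for 33646 tiles, with 200 changed by a known fold, were also run for the library comparison. Their outcome is not given, and no value above rests on them. Tiles are named by the nearest gene end. Named are the 10 broadest, the 8 highest of each class by the smaller of both libraries' ratios, with at least 50 fragments in the class, the 10 highest and 10 lowest between libraries in Kupffer-like cells and 5 and 5 in endothelial-like cells, with at least 100 fragments, and the extremes of each gene list. Symbols beginning with Gm or ending in Rik and, for classes, marker genes were passed over.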

Additional observations from a re-analysis of the deposited data

Results flagged for a closer look

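Barcodes that were not called cells were used in no comparison. Of their autosomal fragments, 17.1% in library 1 and 5.94% in library 2 lay in open tiles at gene ends. Of all fragments of called cells, with X and Y included, 23.9% and 17.5% did. The tiles were chosen by fragments of called cells, so a higher share there is partly built in. These values were taken up because they are a signal outside the cells that were compared.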

How the results depend on the processing

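No paired analysis was possible because each genotype has 1 library and no barcode suffix is tied to a genotype. The number of open tiles at gene ends was 10154 with 500 bases in place of 1 kb, and the median breadth was 4.71% with cells thinned to 5000 fragments. Tiles higher in library 2 in Kupffer-like cells numbered 148 with each cell counted once, 193 with open-tile scaling and no centring, 68 with thinned cells and 856 with no minimum per tile, and lower ones 256 with each cell counted once, 96 with thinned cells and 835 with no minimum. In endothelial-like cells the higher tiles numbered 11 with each cell counted once, 14 with thinned cells, 37 with cells of at least 50% in peaks and 1418 with no minimum, and the lower ones 27, 14, 72 with marked doublets left out and 1254 with no minimum. Thinned cells leave fewer fragments and a minimum of none adds tiles with few; the cause of the other shifts was not tested. With a limit of 120 bases short fragments made up 65.2% and 64.8%, and at the main limit 70.4% in library 2 with pile-ups left out. Counts of tiles higher in a class stayed within 1.5 times under all alternatives run. Of the library ratios of named tiles 10 moved beyond their interval and 290 did not, and none changed sign. Without the 26 shallow library 1 cells of cluster 2, 737 tiles were higher in endothelial-like cells and 903 in Kupffer-like cells; this alternative, the doublet and resolution alternatives of the library comparison, and pile-ups and cluster 7 left out for the number of tiles, were chosen after seeing the data. Leiden resolution 1 left 304 and 150 Kupffer-like cells. Depth limits tiles near 50 fragments: Slc40a1, with 29 and 15 and under that minimum, has an interval from -1.11 to 0.84.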
